A study of Arabidopsis thaliana with 4 samples.

Results

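The auxin response factors (ARFs) and the Aux/IAA proteins are the transcription factors and the repressors at the end of the auxin signalling pathway of plants. They were taken from the gene counts of Arabidopsis thaliana by locus identifier, as 29 Aux/IAA genes (IAA1 to IAA34, a numbering with gaps) and 15 ARF genes (ARF1 to ARF11 and ARF16 to ARF19), 44 members against 24750 genes listed in all. Native polyadenylated RNA had been sequenced with Oxford Nanopore direct RNA sequencing (ONT DRS), in which each read comes from 1 RNA molecule without reverse transcription or amplification. The comparison set 2 libraries of unopened floral buds against 2 libraries of seedlings. Both came from the wild-type accession Col-0 under 16 h of light and 8 h of dark, with no auxin treatment named. The floral buds came from plants that had spent 14 days on sucrose-containing agar plates and then 3 weeks in soil, and the seedlings were harvested after the 14 days on plates, so organ, age and growth medium cannot be told apart.

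Auxin joins TIR1/AFB receptors to Aux/IAA proteins, which are then ubiquitinated and destroyed. While Aux/IAA proteins are present they bind ARFs at auxin response elements and recruit TOPLESS corepressors, and once they are destroyed the ARFs are released. Many Aux/IAA genes are themselves targets of ARFs, which makes the family a feedback loop, and in flowers ARFs are known for the patterning of the gynoecium and the growth of stamens.

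The 4 libraries held between 579416 and 796885 rounded counts, and 3 counts in a library corresponded to between 3.73 and 5.28 CPM (normalized counts scaled by the size of the library). The floral organ markers AP1, AP3 and AG were at 0 in both seedling libraries and summed, with PI and SEP3, to 1170 and 1080 CPM in floral buds and to 10.6 and 5.07 CPM in seedlings. Root markers (PYK10, PIN2, CASP1, IRT1 and EXP7) summed to 31.1 and 16.9 CPM in floral buds and to 1440 and 1350 CPM in seedlings. Of these 5 root markers, PYK10, PIN2 and CASP1 were called higher in seedlings, and PYK10 alone gave 1370 and 1300 CPM of the sum there. IRT1 was not called and had 24.9 and 11.3 CPM in floral buds, against 10.6 and 5.07 CPM in seedlings. CASP1 was at 0 in both floral bud libraries, and EXP7, with 0 and 0 counts in floral buds, against 2 and 0 in seedlings, was too low to be tested. The green tissue markers CAB1 and LHCB3 summed to 3680 and 3460 CPM in floral buds and to 19600 and 20100 CPM in seedlings. Both were called higher in seedlings. Floral organ markers were thus higher in floral buds, and green tissue markers and 3 of the 5 root markers higher in seedlings. In such bulk samples fewer cells of a type and less RNA per cell cannot be told apart.

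The sequence on which auxin acts was read from the RefSeq annotation of TAIR10.1, because it separates the canonical Aux/IAA genes from the others. The core of the degron, Gly-Trp-Pro-Pro, was encoded 1 time in each of the 23 canonical members and in none of the 6 members without a complete degron. The codons of the core are in capitals below for 2 members that were higher in floral buds (IAA8 and IAA12) and 3 that were higher in seedlings (IAA3, IAA17 and IAA29).
IAA8, AT2G22670, chr2:9637725-9637754, plus strand: caggttgttGGTTGGCCTCCAatcagatca
IAA12, AT1G04550, chr1:1241058-1241087, plus strand: caagtggtaGGATGGCCACCAattgggtta
IAA3, AT1G04240, chr1:1129019-1129048, minus strand: cagattgttGGATGGCCACCAgttagatct
IAA17, AT1G04250, chr1:1136938-1136967, plus strand: caagttgtgGGATGGCCACCGgtgagatca
IAA29, AT4G32280, chr4:15583942-15583971, plus strand: gaagttgttGGATGGCCACCAgtaaaaaca
All 5 genes thus encode the core that the receptors bind, on either side of the comparison.

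Of the 44 members, 43 were listed in the counts, and IAA31 (AT3G17600) was not. IAA15 was at 0 in every library, and IAA20, IAA33 and IAA34 had too few counts to be tested, with at most 3 in any library. The remaining 39 members had at least 5 counts over the 4 libraries and were tested with edgeR's quasi-likelihood test. A gene was called where its false discovery rate (FDR, Benjamini-Hochberg over all genes tested) was below 0.05 and its fold change above 2.

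Of the 39 members tested, 13 were called (33.3%), against 19.8% of all 18647 genes tested. Of these, 6 were higher in floral buds (15.4% of the members, against 10.3% of all genes) and 7 were higher in seedlings (17.9%, against 9.52%). The median log2 fold change of floral buds over seedlings was 0.03 over the members and 0.06 over all genes tested, and the median size of the log2 fold change was 0.75 and 0.67. The 4 ARFs that were called were all higher in floral buds, while 7 of the 9 Aux/IAA genes that were called were higher in seedlings. No ARF was called higher in seedlings by edgeR, DESeq2 or limma-voom, and none had an unadjusted p below 0.05 in that direction with edgeR. With 2 libraries in a stage, the smallest p that an exact permutation test can give is 0.33, so single values carry only the test across all genes.

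**Figure D1:**
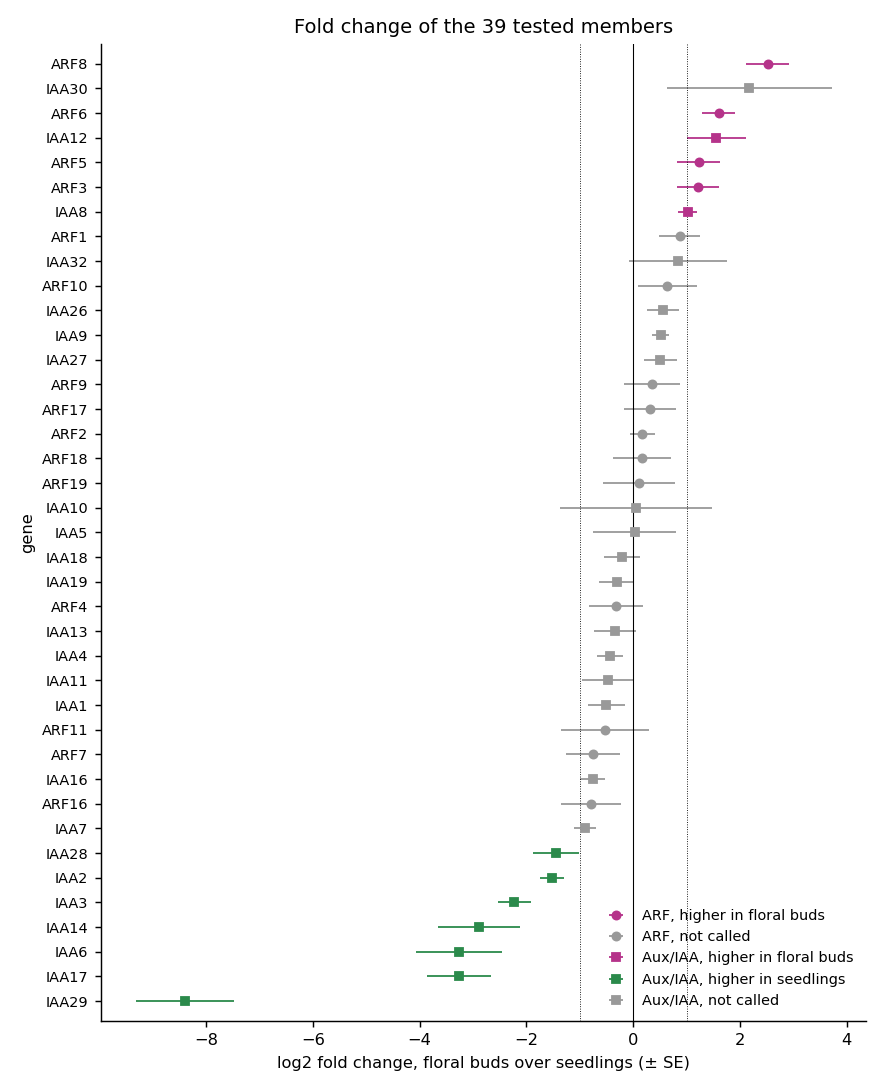
Log2 fold change of floral buds over seedlings (horizontal axis, bars are ± SE) of the 39 tested members, ordered by value, with dotted lines at a fold change of 2. ARF8 is at the top with 2.52 and IAA29, which had no count in floral buds, at the bottom, where the fitted value is not a measured fold.

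Class A ARFs activate transcription, and 3 of the 5 (ARF5, ARF6 and ARF8) rose in floral buds. ARF8 (AT5G37020), which acts with ARF6 in stamen elongation and gynoecium maturation, had 93.2 and 66.2 CPM in floral buds, against 10.6 and 16.9 CPM in seedlings. Both floral bud libraries were far above both seedling libraries, and the log2 fold change was 2.52 ± 0.40 (SE, edgeR FDR 6.4e-09). ARF6 (AT1G30330) had 101 and 110 CPM in floral buds, against 44 and 25.4 CPM in seedlings. Its log2 fold change was 1.60 ± 0.31 (edgeR FDR 3.9e-06), and its groups did not overlap. ARF5 (AT1G19850), known as MONOPTEROS and needed for the outgrowth of flowers, had 51 and 50.7 CPM in floral buds, against 22.9 and 20.3 CPM in seedlings, a log2 fold change of 1.23 ± 0.40 (edgeR FDR 0.013). The floral bud libraries nearly coincided for ARF5, but its call was lost without floral buds replicate 1 (edgeR FDR 0.0645), floral buds replicate 2 (0.063) or seedlings replicate 2 (0.0908), and with DESeq2 (FDR 0.22).

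The other class A genes, ARF7 (AT5G20730) and ARF19 (AT1G19220), act together in lateral root formation and did not pass the test. ARF7 had 9 and 14 counts in floral buds, against 15 and 15 in seedlings, with a log2 fold change of -0.75 and a 95% interval from -1.74 to 0.24. ARF19 had 8 and 9 counts in floral buds, against 9 and 3 in seedlings, and its interval ran from -1.19 to 1.42. The interval of ARF7 includes a level 2-fold lower in floral buds but not one 2-fold higher, and that of ARF19 includes both, so such changes were not detectable at this depth. ARF7 overlaps AT5G20720 by 254 bases on the other strand, and the reads had been joined to genes without regard to strand. AT5G20720 had 168 and 150 counts in floral buds, against 97 and 117 in seedlings, and was not called (log2 fold change 0.19).

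Class B ARFs are mostly repressors, and of 7 only ARF3 was called. ARF3 (AT2G33860), known as ETTIN and needed for the patterning of the gynoecium, had 57.2 and 50.7 CPM in floral buds, against 26.4 and 20.3 CPM in seedlings. Its log2 fold change was 1.21 ± 0.39 (edgeR FDR 0.011), and the call was lost without floral buds replicate 1 (edgeR FDR 0.0945) or seedlings replicate 2 (0.12), and with DESeq2 (FDR 0.216). ARF2 (AT5G62000), a repressor of growth and of organ size, had 126 and 139 CPM in floral buds, against 109 and 125 CPM in seedlings. The 95% interval around its log2 fold change of 0.17 ran from -0.28 to 0.63. That interval lies within a 2-fold change in either direction. ARF1 (AT1G59750) had 37.3 and 64.8 CPM in floral buds, against 24.7 and 30.4 CPM in seedlings, with an edgeR FDR of 0.082, and it was called when floral buds replicate 1 was left out (FDR 0.0306). ARF4, ARF9, ARF11 and ARF18 had overlapping groups. ARF4 had 15 and 12 counts in floral buds, against 6 and 20 in seedlings, and ARF9 (AT4G23980) had 20 and 12 in floral buds, against 11 and 8 in seedlings. ARF11 (AT2G46530) had 6 and 3 counts in floral buds, against 3 and 7 in seedlings, and ARF18 (AT3G61830) had 18 and 10 in floral buds, against 13 and 6 in seedlings.

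Of the 3 class C ARFs, which are regulated by miR160, edgeR, DESeq2 and limma-voom called none, and none had an unadjusted p below 0.05 with edgeR. ARF10 (AT2G28350) had 22 and 9 counts in floral buds, against 6 and 9 in seedlings. ARF16 (AT4G30080) had 9 and 9 counts in floral buds, against 13 and 11 in seedlings. ARF17 (AT1G77850) had 22 and 14 counts in floral buds, against 13 and 9 in seedlings. The 3 genes did not lean one way, and none was far enough from 0 for its SE.

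**Figure D2:**
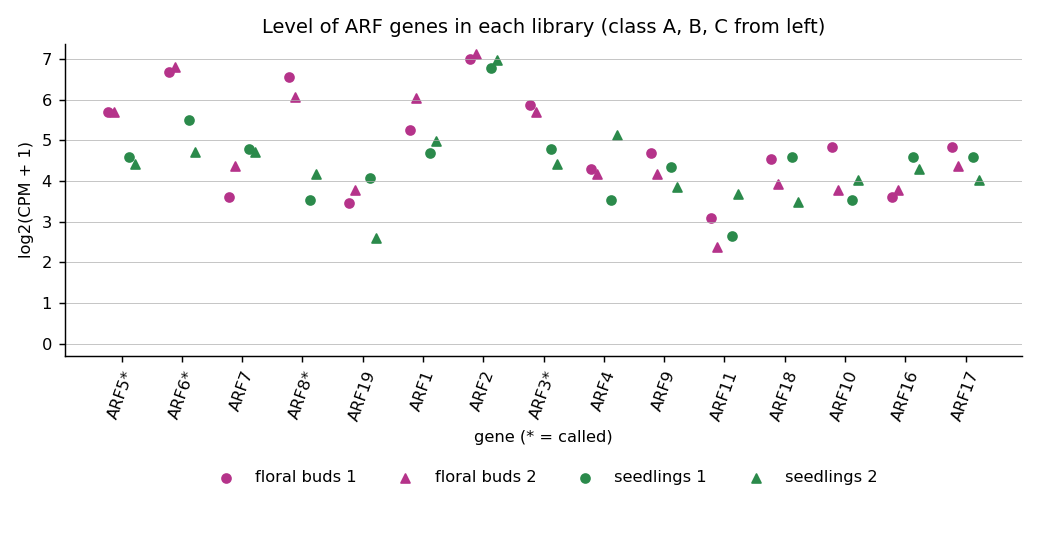
Level of the 15 ARF genes in each library as log2(CPM + 1), with floral buds left of seedlings within each gene and classes A, B and C from left to right. ARF5, ARF6, ARF8 and ARF3 are marked as called, and in each both floral bud libraries lie above both seedling libraries.

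Summed over the 15 ARFs, the level was 625.3 and 611.5 CPM in floral buds, against 394.5 and 387.2 CPM in seedlings. Class A genes gave 42.5% (exact 95% binomial interval 38.2 to 47) and 42.4% (37.7 to 47.2) of the ARF counts in floral buds, against 30.4% (24.4 to 36.8) and 24% (18.6 to 30.1) in seedlings. ARF6 and ARF8 alone gave 31% and 28.8% of the ARF counts in floral buds, against 13.8% and 10.9% in seedlings. The share of this pair was not planned, and it follows from the rise of both genes. Class B genes gave 46.9% (42.5 to 51.4) and 50.2% (45.4 to 55) in floral buds, against 55.4% (48.6 to 62) and 63.3% (56.7 to 69.6) in seedlings. The interval of seedlings replicate 1 overlapped those of the floral buds. For class C the shares were 10.5% and 7.37% in floral buds, against 14.3% and 12.7% in seedlings, with overlapping intervals. These intervals cover counting error only, and the shares of the classes sum to a whole, so a higher share of 1 class lowers the others.

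The miRNAs that target ARFs were examined because ARF6 and ARF8, the pair that rose, share 1 of them. The mature sequences are from RefSeq with the seed (bases 2 to 8) in capitals, and the sites are from the annotated coding sequences of TAIR10.1 with the bases opposite the seed in capitals.
miR167a-5p: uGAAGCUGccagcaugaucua
site in ARF8, chr5:14633841-14633861, plus strand: uagaucaggcuggCAGCUUGu
site in ARF6, chr1:10686478-10686498, minus strand: gagaucaggcuggCAGCUUGu
miR160a-5p: uGCCUGGCucccuguaugcca
site in ARF17, chr1:29274189-29274209, plus strand: uggcaugcagggaGCCAGGCa
site in ARF10, chr2:12115741-12115761, plus strand: aggaauacagggaGCCAGGCa
site in ARF16, chr4:14704141-14704161, minus strand: ggguuuacagggaGCCAGGCa
With a penalty of 1 for a mismatch and 0.5 for a G:U pair, the 2 miR167a-5p sites had penalties of 3 (ARF8) and 4 (ARF6), and no other member had a site with a penalty of 4 or less for this miRNA. The 3 miR160a-5p sites had penalties of 0.5 (ARF17), 2 (ARF10) and 2.5 (ARF16). Both miR167 targets were thus called higher in floral buds and no miR160 target was called in either direction. Precursor loci had few reads in these polyadenylated RNA libraries and did not lean one way. MIR167A had 0 and 0 counts in floral buds, against 2 and 2 in seedlings, and MIR167D had 0 and 0, against 2 and 0. MIR160C had 0 and 1 in floral buds, against 5 and 1 in seedlings. For MIR160B the counts were 0 and 2 in floral buds, against 0 and 0 in seedlings. MIR167B was at 0 in every library, and MIR160A and MIR167C were not listed. Mature miRNAs were not measured. TAS3A, the source of the small RNAs that target ARF2, ARF3 and ARF4, had 11 and 17 counts in floral buds, against 9 and 15 in seedlings (log2 fold change -0.15 ± 0.51). TAS3B had 6 and 7 counts in floral buds, against 1 and 0 in seedlings, and was not called (edgeR FDR 0.061). TAS3C had 2 and 3 counts in floral buds, against 0 and 0 in seedlings, and was not called either (edgeR FDR 0.199). Among the 4 small RNA loci that could be tested, edgeR, DESeq2 and limma-voom called none, and 1 (TAS3B) had an unadjusted p below 0.05.

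The Aux/IAA genes that were called were mostly higher in seedlings. The summed level of the family was 1875 and 1699 CPM in floral buds, against 2011 and 2095 CPM in seedlings. Of the 24 tested, 2 were called higher in floral buds (8.33%, against 10.3% of all genes tested). In seedlings 7 were called higher (29.2%, against 9.52%). Of the counts of both families together, ARFs gave 25% and 26.5% in floral buds, against 16.4% and 15.6% in seedlings. That share was not planned. The median log2 fold change was -0.39 over the tested Aux/IAA genes and 0.31 over the ARFs, beside 0.06 over all genes tested.

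IAA8 and IAA12 rose in floral buds. IAA8 (AT2G22670), a canonical repressor, had 459 and 379 CPM in floral buds, against 225 and 188 CPM in seedlings. Its log2 fold change was 1.02 ± 0.18 (edgeR FDR 2.3e-07), which lies at the fold limit, and the call was lost without floral buds replicate 1 or without seedlings replicate 2 (0.89 in both cases, under the limit), and with limma-voom (log2 fold change 1.00, not above the limit). IAA12 (AT1G04550), known as BODENLOS, is the repressor that binds ARF5 in the embryo. It had 24 and 19 counts in floral buds, against 4 and 7 in seedlings, giving a log2 fold change of 1.56 ± 0.55 (edgeR FDR 0.023). Like ARF5, it was higher in both floral bud libraries than in both seedling libraries. Its call rested on few counts and was lost without floral buds replicate 1 (edgeR FDR 0.13), floral buds replicate 2 (0.0685) or seedlings replicate 1 (0.187), and with DESeq2 (FDR 0.294) or limma-voom (0.071).

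Among the 7 Aux/IAA genes that were lower in floral buds, IAA29 (AT4G32280), known for its response to shade and warmth, was not detected there. It had 0 and 0 counts in floral buds, against 37 and 36 in seedlings (65.2 and 60.9 CPM). Set against the limit of 3 counts per library, it was at least 15.8-fold lower in floral buds (edgeR FDR 3.4e-18). IAA17 (AT1G04250), known as AXR3 from its auxin-resistant roots, had 5 and 1 counts in floral buds, against 23 and 23 in seedlings, giving a log2 fold change of -3.27 ± 0.60 (edgeR FDR 6.5e-07). It differed between the floral bud libraries, yet both were far below the seedlings. Without floral buds replicate 1 the value was -4.62 and without floral buds replicate 2 it was -2.66.

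IAA3 (AT1G04240), known as SHY2 and a regulator of root meristem size, had 29.8 and 22.5 CPM in floral buds, against 113 and 135 CPM in seedlings. Its log2 fold change was -2.23 ± 0.31 (edgeR FDR 2.4e-11). IAA3 overlaps AT1G04230 by 640 bases on the other strand, and that gene had 8 and 10 counts in floral buds, against 1 and 15 in seedlings, so its own counts did not separate the stages. IAA2 (AT3G23030) had 95.7 and 81.7 CPM in floral buds, against 227 and 284 CPM in seedlings, a log2 fold change of -1.52 ± 0.22 (edgeR FDR 5.8e-11). For both genes the groups were apart and the call was kept under each of the alternatives tried.

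The remaining 3 genes were lower in floral buds, and each lost its call under some of the alternatives. IAA14 and IAA6 also rested on few counts. IAA14 (AT4G14550), known as SOLITARY-ROOT for its block of lateral roots, had 4 and 0 counts in floral buds, against 10 and 14 in seedlings, giving a log2 fold change of -2.89 ± 0.76 (edgeR FDR 0.0012). Without floral buds replicate 2 the value was -2.04 and the call was lost (edgeR FDR 0.0734), and without floral buds replicate 1, which leaves a library at 0, the fitted value was -6.70. With DESeq2 (FDR 0.103) and limma-voom (0.0643) IAA14 was not called. IAA6 (AT1G52830) had 1 and 2 counts in floral buds, against 7 and 17 in seedlings. Its pooled level in seedlings was 10.4 times that in floral buds, with a counting interval from 3.2 to 54.2 (edgeR FDR 0.00049, and 0.145 without seedlings replicate 2), and DESeq2 (FDR 0.0678) and limma-voom (0.0694) did not call it. IAA28 (AT5G25890), a regulator of lateral root founder cells, had 18 and 7 counts in floral buds, against 21 and 31 in seedlings. The log2 fold change was -1.44 ± 0.43 (edgeR FDR 0.0059), and the call was lost without floral buds replicate 2 (0.15) or seedlings replicate 2 (0.13), and with DESeq2 (FDR 0.176) or limma-voom (0.0891). The summed root markers were at 31.1 and 16.9 CPM in floral buds, against 1440 and 1350 CPM in seedlings, with 3 of the 5 called higher in seedlings and IRT1 leaning the other way, and their part in the changes of IAA3, IAA14, IAA17 and IAA28 was not tested.

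**Figure D3:**
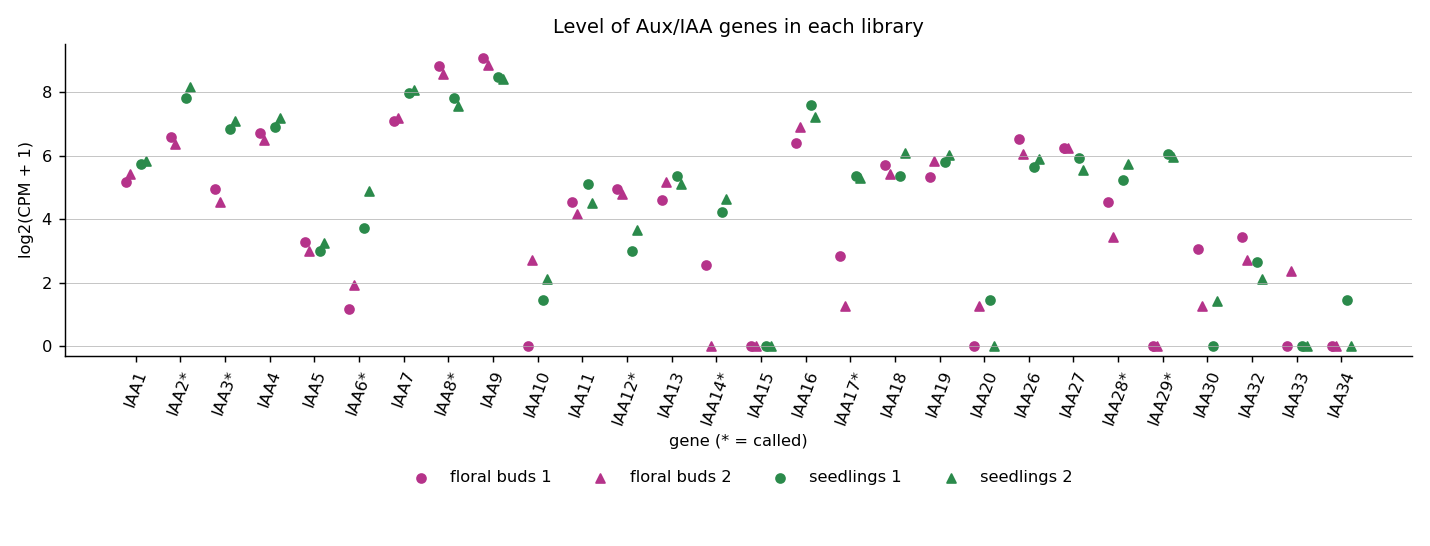
Level of the 28 listed Aux/IAA genes in each library as log2(CPM + 1), with floral buds left of seedlings within each gene and an asterisk where the gene was called. IAA29 is at 0 in both floral bud libraries, and IAA8 and IAA12 are the only marked genes with the floral buds above the seedlings.

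Among the tested Aux/IAA genes, 15 were not called, and 3 of these passed the FDR but not the fold limit. IAA7 (AT3G23050), known as AXR2, had 136 and 144 CPM in floral buds, against 252 and 269 CPM in seedlings, a log2 fold change of -0.90 ± 0.20 (edgeR FDR 8.3e-05). IAA16 (AT3G04730) had 83.3 and 118 CPM in floral buds, against 194 and 147 CPM in seedlings, a log2 fold change of -0.76 ± 0.23 (edgeR FDR 0.0057), and it passed both limits without floral buds replicate 2 (-1.05). IAA9 (AT5G65670), a repressor in leaf development, had 537 and 465 CPM in floral buds, against 354 and 345 CPM in seedlings, a log2 fold change of 0.52 ± 0.16 (edgeR FDR 0.0093). The FDR of IAA9 was above 0.05 without floral buds replicate 1 (0.0971) or either seedling library (0.0539 and 0.0771), and that of IAA16 without floral buds replicate 1 (0.167) or seedlings replicate 1 (0.172). With DESeq2 and limma-voom neither passed the FDR (0.0618 and 0.0506 for IAA9, 0.139 and 0.109 for IAA16), and with the replicate block IAA9 was at 0.0521. The other Aux/IAA members tested and not called had intervals that include 0. IAA26 (AT3G16500) had 92 and 66.2 CPM in floral buds, against 49.3 and 59.2 CPM in seedlings, and IAA27 (AT4G29080) had 75.8 and 74.7 CPM in floral buds, against 59.9 and 45.7 CPM in seedlings. Both leaned to the floral buds (log2 fold changes of 0.55 ± 0.30 and 0.51 ± 0.31) without passing the test. IAA11 (AT4G28640) had 18 and 12 counts in floral buds, against 19 and 13 in seedlings, and IAA13 (AT2G33310) had 19 and 25 counts in floral buds, against 23 and 20 in seedlings. IAA13 overlaps AT2G33300 by 1176 bases on the other strand, a gene at 0 in every library. IAA10 (AT1G04100) had 0 and 4 counts in floral buds, against 1 and 2 in seedlings. Values near 0 were found for IAA5 (0.03), IAA18 (-0.21) and IAA19 (-0.31). For IAA19 (AT3G15540), which acts in hypocotyl and stamen filament growth, the 95% interval ran from -0.96 to 0.33, within a 2-fold change. For IAA5, with 7 and 5 counts in floral buds, against 4 and 5 in seedlings, it ran from -1.51 to 1.56, and a 2-fold change was not detectable.

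IAA8 and IAA9 together gave 53.1% (exact 95% binomial interval 50.6 to 55.7) and 49.7% (46.8 to 52.5) of the Aux/IAA counts in floral buds, against 28.8% (26.2 to 31.5) and 25.4% (23 to 27.9) in seedlings. The intervals of the stages did not overlap. The share of this pair was not planned either, and both genes were higher in both floral bud libraries than in both seedling libraries.

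**Figure D4:**
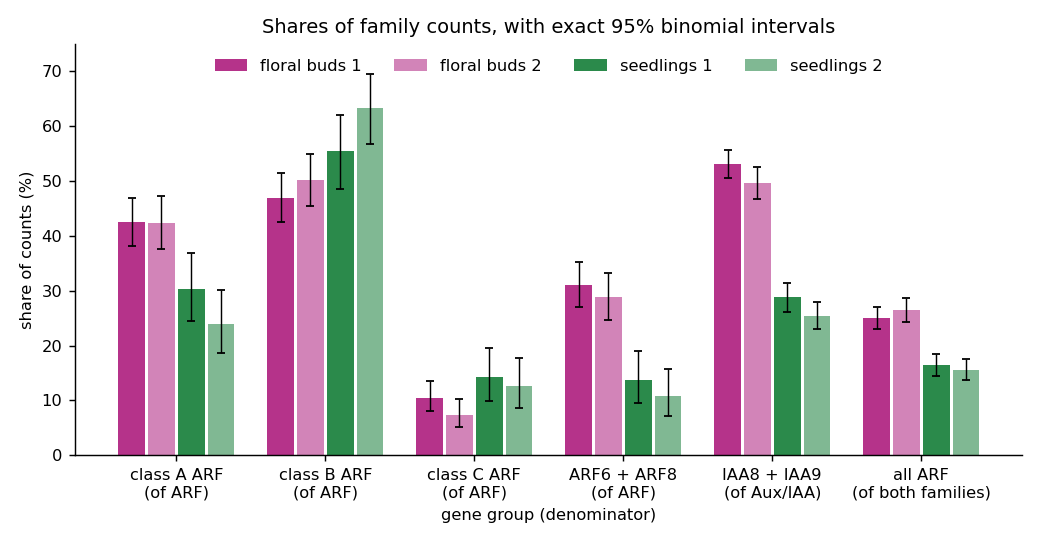
Share of counts (percent, bars are single libraries, error bars are exact 95% binomial intervals) of ARF classes and of ARF6 with ARF8 in the ARF counts, of IAA8 with IAA9 in the Aux/IAA counts, and of all ARFs in the counts of both families. Class A shares are 42.5% and 42.4% in floral buds, against 30.4% and 24% in seedlings.

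The Aux/IAA members without a complete degron, which the receptors cannot bind in the usual way, were hardly detected. Of the 6, 5 were listed, and no library had more than 8 counts of any of them. IAA32 (AT2G01200) had 8 and 4 counts in floral buds, against 3 and 2 in seedlings, and IAA30 (AT3G62100) had 6 and 1 in floral buds, against 0 and 1 in seedlings. IAA32 overlaps AT2G01210 by 826 bases on the other strand, and that gene had between 1 and 6 counts in each library. Only IAA30 and IAA32 could be tested, edgeR, DESeq2 and limma-voom called neither, and neither had an unadjusted p below 0.05. At this depth no difference between the stages was detectable for these genes.

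Members that are each other's closest relatives in protein sequence were compared as ratios within each library, which do not depend on the scaling of libraries. IAA3 and IAA4 (AT5G43700), with 76.5% identical residues, moved apart with the smallest spread between replicates. IAA3 gave 22.2% and 20.3% of the counts of the pair in floral buds, against 48.9% and 48.2% in seedlings. The log2 ratio of IAA3 to IAA4 was lower in floral buds than in seedlings, with a difference of -1.78 and an SD between replicates of 0.08. Such an SD rests on 2 libraries in a stage and can fall below the counting error. Here the counting intervals are wider than the gaps between replicates. IAA4 itself had 104 and 88.8 CPM in floral buds, against 118 and 145 CPM in seedlings, and was not called.

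In 4 other Aux/IAA pairs the shift of the ratio was over 3 times the SD between replicates. For IAA12 and IAA13 the difference of the log2 ratio (floral buds minus seedlings) was 1.89 (SD 0.59), and IAA12 gave 55.8% and 43.2% of the pair in floral buds, against 14.8% and 25.9% in seedlings. For IAA6 and IAA19 it was -2.62 (SD 0.51), with IAA6 at 3.03% and 4.76% of the pair in floral buds, against 18.4% and 30.9% in seedlings. For IAA1 and IAA2 it was 1.02 (SD 0.28), and for IAA8 and IAA9, which moved in the same direction, it was 0.50 (SD 0.12). These shifts are descriptions, since 2 libraries against 2 allow no p below 0.33. For IAA18 and IAA26 the difference was -0.70 (SD 0.26). In this pair and in the 4 pairs before it, counting intervals of the shares overlapped between the stages. In IAA7 and IAA14 the difference was 2.53 with an SD of 1.55, since IAA14 had no count in floral buds replicate 2.

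ARF pairs were less clear. The log2 ratio of ARF6 to ARF8 was 0.11 and 0.72 in floral buds, against 1.97 and 0.56 in seedlings, so the libraries of the stages overlapped. ARF3 gave 75.4% and 75% of its pair with ARF4 (AT5G60450) in floral buds, against 71.4% and 37.5% in seedlings, where the replicates were far apart. For ARF10 and ARF16 the difference of the log2 ratio was 1.29 (SD 0.73), and for ARF7 and ARF19 it was -1.04 (SD 0.75).

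**Figure D5:**
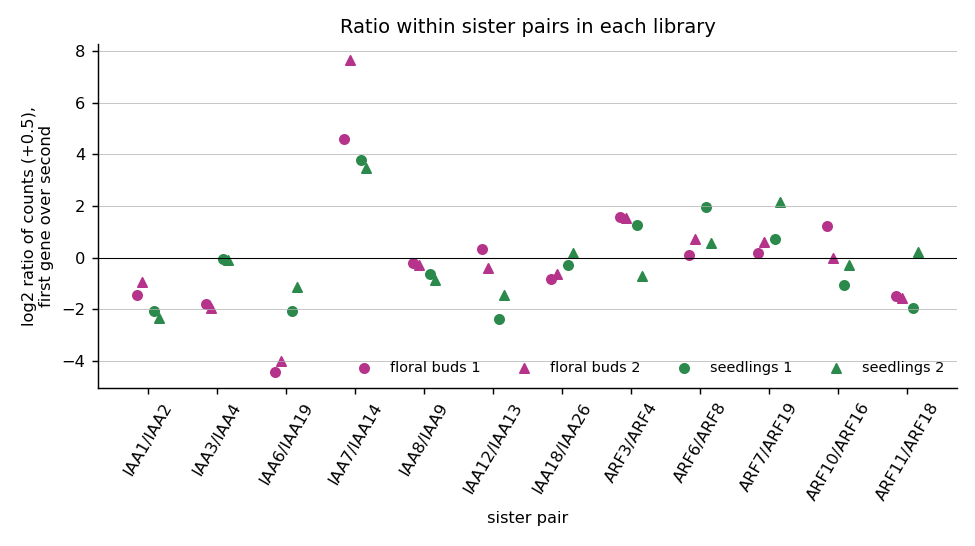
Log2 ratio of the counts (with 0.5 added) of the first gene over the second in 12 pairs of closest relatives, 1 point for each library, floral buds left of seedlings (2 pairs with few counts are not drawn). IAA3/IAA4 has the smallest spread between replicates, with -1.79 and -1.94 in floral buds, against -0.07 and -0.10 in seedlings.

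Among the members, 3 pairs of Aux/IAA genes lie head to head, each with 1 other gene in between. IAA3 and IAA17 are 6388 bases apart on chromosome 1, and both fell in floral buds. IAA2 and IAA7 are 12510 bases apart on chromosome 3, and both were lower in floral buds, with IAA7 under the fold limit. IAA14 and IAA1 are 10732 bases apart on chromosome 4, where IAA14 fell and IAA1 (AT4G14560) had 28 and 30 counts in floral buds, against 30 and 33 in seedlings, with a log2 fold change of -0.50 ± 0.35.

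ARFs bind auxin response elements, and the 500 bases before the annotated start of each gene in TAIR10.1 were searched on both strands for TGTCTC, for TGTCGG and for the G-box CACGTG. The first of these was found in 2 of the 6 members higher in floral buds (IAA8 and ARF3), in 2 of the 7 higher in seedlings (IAA3 and IAA6) and in 8 of the 26 not called, against 21.4% of all genes. TGTCGG was found in 1 of the 6 (IAA12), in none of the 7 and in 8 of the 26, against 7.9% of all genes. The G-box was found in none of the 13 called members and in 6 of the 26 not called, against 9.71% of all genes. IAA3 held TGTCTC at 3 places, of which the closest pair is shown here with the first place in capitals, in reverse orientation.
IAA3, chr1:1130066-1130095, minus strand: attaataggttaGAGACAgagagacaaaag
IAA8, chr2:9636158-9636187, plus strand: aaaagaataacaGAGACAaaaaaaagtcat
Such matches are letters in a window and were not measured as binding sites.

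Among 13 tested receptors, subunits of the SCF ubiquitin ligase and corepressors, edgeR called only TPR3 (AT5G27030), a TOPLESS-related corepressor. That was 7.69% of the list, against 19.8% of all genes tested, and the difference was not tested. DESeq2 and limma-voom called none of the 13. TPR3 had 13 and 32 counts in floral buds, against 5 and 9 in seedlings (log2 fold change 1.31 ± 0.52, edgeR FDR 0.048), and its call was lost without floral buds replicate 2 (0.797), seedlings replicate 1 (0.289) or seedlings replicate 2 (0.0568). The receptor TIR1 (AT3G62980) had 37 and 30 counts in floral buds, against 34 and 32 in seedlings, giving a log2 fold change of -0.36 with a 95% interval from -1.02 to 0.29. The corepressor TPL had 55 and 45 counts in floral buds, against 38 and 50 in seedlings. The receptor gene AFB3 was at 0 in every library.

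Of 14 genes of auxin synthesis 6 could be tested, and 2 of these were called in each direction, 33.3% each. Of all genes tested, 10.3% were called higher in floral buds and 9.52% higher in seedlings. TAA1 (AT1G70560) and TAR2 (AT4G24670), aminotransferases of the first step, rose in floral buds. TAA1 had 24 and 22 counts in floral buds, against 6 and 8 in seedlings (log2 fold change 1.32 ± 0.52, edgeR FDR 0.045). TAR2 had 25 and 13 counts in floral buds, against 5 and 5 in seedlings (1.51 ± 0.58, edgeR FDR 0.040). The flavin monooxygenase genes YUC5 and YUC9 were at 0 in both floral bud libraries, against 1 and 6 counts of YUC5 and 3 and 4 counts of YUC9 in seedlings. Set against 3 counts per library they were at least 1.5-fold (YUC5) and 1.51-fold (YUC9) lower in floral buds. Both passed the count filter only through their counts in seedlings, so the share called higher there depends on that filter. All 4 calls of the list were close to the limit, and DESeq2 made none of the 4 and limma-voom 1 of them. Leaving out any 1 of the 4 libraries ended that of TAA1 (edgeR FDR 0.0975 to 0.202), leaving out floral buds replicate 1 or either seedling library ended that of TAR2 (0.13 to 0.388), and leaving out either floral bud library ended those of YUC5 and YUC9 (0.0804 to 0.101).

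Of 13 tested transport genes, 3 efflux carriers were called higher in seedlings (23.1% called, against 19.8% of all genes tested), and edgeR, DESeq2 and limma-voom called none higher in floral buds, with no unadjusted p below 0.05 in that direction. PIN3 (AT1G70940), a carrier of root and shoot tropisms, had 13 and 21 counts in floral buds, against 72 and 64 in seedlings (log2 fold change -2.37 ± 0.33, edgeR FDR 9.1e-12). PIN4 (AT2G01420) had 21 and 10 counts in floral buds, against 43 and 41 in seedlings (-1.82 ± 0.37, edgeR FDR 1.1e-05). PIN2 (AT5G57090), the root carrier that is also in the root marker list, had 0 and 4 counts in floral buds, against 9 and 9 in seedlings (-2.46 ± 0.83, edgeR FDR 0.016), and its call was lost without floral buds replicate 1 (-1.42), seedlings replicate 1 (-2.44) or seedlings replicate 2 (-2.50), and with DESeq2 (FDR 0.287) or limma-voom (0.102).

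Among 9 tested early auxin targets outside the Aux/IAA family, 2 were called, both higher in seedlings. That was 22.2%, against 19.8% of all genes tested in either direction and 9.52% higher in seedlings. GH3.17 (AT1G28130), which conjugates auxin to glutamate, had 9 and 6 counts in floral buds, against 19 and 25 in seedlings (log2 fold change -1.92 ± 0.51, edgeR FDR 0.0011), and it was not called with DESeq2 (FDR 0.0755). SAUR15 (AT4G38850), a small auxin-induced gene, had 1 and 0 counts in floral buds, against 6 and 7 in seedlings. Its pooled level in seedlings was 17 times that in floral buds, with a counting interval from 2.55 to 722 (edgeR FDR 0.010), and it lost its call without floral buds replicate 2 (0.0781), seedlings replicate 1 (0.0586) or seedlings replicate 2 (0.0929), and with DESeq2 (FDR 0.19). None of the 9 was called higher in floral buds by edgeR, DESeq2 or limma-voom, and none had an unadjusted p below 0.05 in that direction. GH3.3, with 25 and 33 counts in floral buds against 15 and 21 in seedlings, had a log2 fold change of 0.31 ± 0.40. Over the lists, the shares called ranged from 0 of 4 small RNA loci to 4 of 6 synthesis genes, against 19.8% of all genes tested. Among those 4 synthesis genes, YUC5 and YUC9 had passed the count filter through seedlings alone.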

How the data were processed

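The authors used Guppy for base calling, minimap2 (2.17, per the labels) for alignment to TAIR10 and assigned reads to genes with TrackCluster, by overlap without regard to strand, so reads of overlapping and antisense genes cannot be told apart. They deposited estimated counts per gene, not normalized, 1 library per column. Of the values above 0, 83.8% were not whole. Columns of 3 libraries were repeated in a second table with 0 differing values.

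The estimated counts were rounded and every gene whose 4 libraries summed to 5 counts or more was tested with edgeR 4.0.16 (R 4.3.3), with upper-quartile factors, a quasi-likelihood fit and stage as the only term, a scaling chosen as the nearest to the quantile normalization the methods name. Calls needed an FDR below 0.05 and a fold change above 2. CPM use the scaled library sizes. The SE was taken as the size of the log2 fold change over the root of F, and 95% intervals are built from it. The prior degrees of freedom were infinite, so no gene had a variance estimate of its own. The common dispersion was 0.0213. The labels call the samples biological replicates without saying more of their source.

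In data simulated for this comparison over 18193 genes, edgeR recovered 131 of 199 genes changed 4-fold, and 95 of 95 with a mean of at least 20 counts, with 7 false calls. DESeq2 recovered 77 of the 199 and limma-voom 80, with 0 false calls each. Whether these rates hold for the measured genes, whose replicates may vary more, was not tested.

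Where both libraries of a stage were at 0, the fold change was set against 3 counts per library and is a lower bound, and for called genes with 1 to 3 counts in a stage the ratio is given with an exact counting interval. Sister pairs are reciprocal best matches of the translated coding sequences, and their ratios have 0.5 added to each count. All sequences and coordinates are from the RefSeq annotation of TAIR10.1 and count from 1.

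All members were to be accounted for by name, those past the limits with counts or CPM in every library, log2 fold change, SE and FDR, and of the pathway lists the genes past the limits were named. Genes of the lists that were named without being called (TIR1, TPL, AFB3, GH3.3 and the small RNA loci) were chosen after their values were seen, and 1 gene of the lists is not reported here. The members and the lists were chosen with earlier results of these data known. Alternatives were other normalizations (TMM, library size), DESeq2 1.42.0, limma-voom 3.58.1, other count filters and fold rules, a replicate block and leaving out each library. Python 3.11.15 with SciPy 1.17.1 was used for intervals.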

Additional observations from a re-analysis of the deposited data

How the results depend on the processing

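Of the 13 called members, 5 (IAA2, IAA3, IAA17, IAA29 and ARF8) were called under every alternative that gave them a value. The count higher in floral buds, 6, became 3 with DESeq2 and 1 with glmTreat against a fold change of 2, and 3 to 5 when 1 library was left out. The count higher in seedlings, 7, became 4 with DESeq2, 4 with limma-voom and 2 with at least 10 counts in each library, where 19 members were tested, and 5 to 7 when 1 library was left out. TMM, library size alone and unrounded counts gave 6 and 7. Of the pathway genes (alternatives chosen after seeing the data), 3 were higher in floral buds, and 0 with DESeq2, limma-voom, no count filter, at least 10 counts in each library or glmTreat, and 0 to 1 without 1 library. There were 7 higher in seedlings, 2 with DESeq2, 4 with no count filter, 2 with at least 10 counts in each library, 3 with glmTreat, and 4 to 6 without 1 library.

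Signs turned only in genes that were not called. With limma-voom IAA5 was at -0.08 and IAA10 at -0.87, with no count filter IAA5 was at -0.02, and with the replicate block IAA10 was at -0.08. Leaving out 1 library gave ranges from -0.13 to 0.16 for IAA5, -0.32 to 1.08 for IAA10, -0.54 to 0.20 for IAA18, -0.93 to 0.74 for ARF4, -0.02 to 1.05 for ARF10, -0.99 to 0.15 for ARF11, -0.32 to 0.84 for ARF18 and -0.49 to 1.12 for ARF19. The cause was not tested. Pooling the libraries cannot test the class shares, since a pooled share always lies between those of its 2 libraries.

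The stages share replicate numbers only: the deviations of floral buds 1 and seedlings 1 from their stage means had r = -0.073 across 10754 genes, which are not independent replicates. With the replicate block the members' counts were 6 and 7, and those of the pathway genes 0 and 5. Depth limits the genes with under about 20 counts, where simulated 4-fold changes were recovered in 36 of 104 genes.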
